A study of Arabidopsis thaliana with 12 samples.

Results

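The 10 genes described here encode homeodomain transcription factors of the KNOX and BELL families of Arabidopsis thaliana, and they were taken by their locus identifiers from an expression table of 33559 genes. There were 4 class I KNOX genes, STM (AT1G62360), KNAT1 (AT4G08150), KNAT2 (AT1G70510) and KNAT6 (AT1G23380). The 6 BELL genes were PNY (AT5G02030, listed as RPL in the reference), PNF (AT2G27990, listed as BLH8), ATH1 (AT4G32980), BLH2 (AT4G36870), BLH4 (AT2G23760) and BEL1 (AT5G41410). All 10 were found, each in a single row, and all passed the filter on low values.

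Stranded sequencing of poly(A)-selected RNA was done in 4 groups of 3 libraries each, all in the Landsberg erecta (Ler) accession, which carries the erecta mutation. The first group was rosette leaves of flowering wild-type plants and the last was whole main inflorescences of wild-type plants with flowers past stage 12 taken off, both untreated. The other groups were apices dissected from the ap1 cal 35S::AP1-GR line, which carries the ap1-1 and cal-1 alleles, either untreated (day 0) or 2 days after 10 µM dexamethasone with 0.015% Silvet was pipetted onto them (day 2). In this line the constitutive 35S promoter drives the floral regulator AP1 joined to a glucocorticoid receptor domain, and dexamethasone releases the fusion protein into the nucleus. The ap1 cal apex is a mass of inflorescence-like meristems that turns to flower formation after release, so it holds far more meristem than a wild-type apex does. No mock-treated group is labelled, so the treatment and the elapsed time cannot be told apart.

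The deposited table gave a single FPKM value (fragments scaled to the length of the transcript and to sequencing depth) per gene and group, in which the 3 libraries had been merged. The spread between libraries is therefore unknown, no test or error could be computed, and the depth behind each value is unknown. A gene was called higher or lower in a comparison when the difference of its log2(FPKM + 1) values was at least 1 and its higher value was at least 5 FPKM. Calls were made over the 22289 genes with at least 1 FPKM in any group, and a "fold" is a ratio of FPKM values. At least 1 FPKM was reached by 18061 to 21018 genes in a group. The defining markers of anther (LTP12, AMS, MS1) summed to 1211 FPKM in inflorescences and to 0.588 to 0.821 FPKM in the other groups, and those of carpel and ovule (STK, SHP1, INO) to 69.1 against 0.307 to 4.16 FPKM. Flower primordium markers (LFY, DRNL) had day-0 and day-2 sums of 57.7 and 197 FPKM. Of the leaf markers, LHCA1 stood at 2361 FPKM in leaves against 251 FPKM at day 0, but RBCS1A, an abundant leaf transcript, was listed at 0 in leaves and at 2493 FPKM at day 0. A value of exactly 0 in this table may thus be a failed estimate, and no ratio is given against one. None of the 10 genes was at 0 in any group.

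KNOX and BELL proteins belong to the TALE class of homeodomain proteins, and a KNOX protein acts as a dimer with a BELL protein, which helps to bring it into the nucleus and onto DNA. Class I KNOX genes are active in the shoot meristem, where they keep cells undifferentiated by favouring cytokinin and limiting gibberellin. They are switched off where a leaf or floral organ starts. Among the BELL genes, PNY, PNF and ATH1 encode the meristem partners of STM, whereas BLH2 (SAWTOOTH1) and BLH4 (SAWTOOTH2) are leaf genes that keep KNAT1 expression out of the leaf margin. BEL1 is known for specifying the integuments of the ovule.

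Class I KNOX genes were high in both sets of apices, intermediate in inflorescences and close to the bottom of the table in leaves. STM, which is needed to form and keep the shoot meristem, stood at 0.159 FPKM in leaves, 195 FPKM at day 0, 217 FPKM at day 2 and 41.2 FPKM in inflorescences. KNAT1 (BREVIPEDICELLUS), which shapes internodes and pedicels, stood at 0.236, 103, 128 and 27.1 FPKM in the same order. Both genes were thus highest at day 2 and lowest in leaves, with STM above KNAT1 in every group but leaves. KNAT2, a gene that KNAT1 and PNY are known to restrict, stood at 0.273, 44.1, 39.8 and 8.49 FPKM. KNAT6, its close relative under the same restriction, which acts with STM in the meristem and at organ boundaries, stood at 0.409, 43.5, 46.5 and 13.2 FPKM. These paralogs were nearly level with each other in the apices, and KNAT6 was 1.56-fold above KNAT2 in inflorescences. Whether neighbouring values such as those of KNAT2 and KNAT6 differ beyond the spread between libraries could not be assessed.

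The BELL genes fell into contrasting patterns. PNY (PENNYWISE), which with PNF is required for internode patterning and for the shoot to answer floral signals, stood at 12.8 FPKM in leaves, 87.8 FPKM at day 0, 84.6 FPKM at day 2 and 30.7 FPKM in inflorescences. PNF (POUND-FOOLISH) stood at 1.98, 39.1, 41.2 and 4.86 FPKM in that order. Both were highest in apices, but PNY was the more even of the pair, with a ratio of its highest to its lowest value of 6.88 against 20.8 for PNF. ATH1, which restrains stem growth in the vegetative rosette and takes part in boundary formation, stood at 4.36, 6.40, 33.9 and 11.7 FPKM. Its day-2 value was the highest of the 4, and its level at day 0 was close to that in leaves.

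The other BELL genes had the opposite order. BLH2 stood at 32.0 FPKM in leaves, 0.761 FPKM at day 0, 3.58 FPKM at day 2 and 6.77 FPKM in inflorescences, and BLH4 stood at 49.0, 1.15, 2.71 and 10.3 FPKM. BEL1 stood at 44.2, 2.41, 1.85 and 9.02 FPKM. All 3 were highest in leaves, lowest in apices and intermediate in inflorescences. BEL1 was therefore 4.90-fold higher in leaves than in inflorescences, the group in which the ovule marker INO was highest at 8.64 FPKM.

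**Figure D1:**
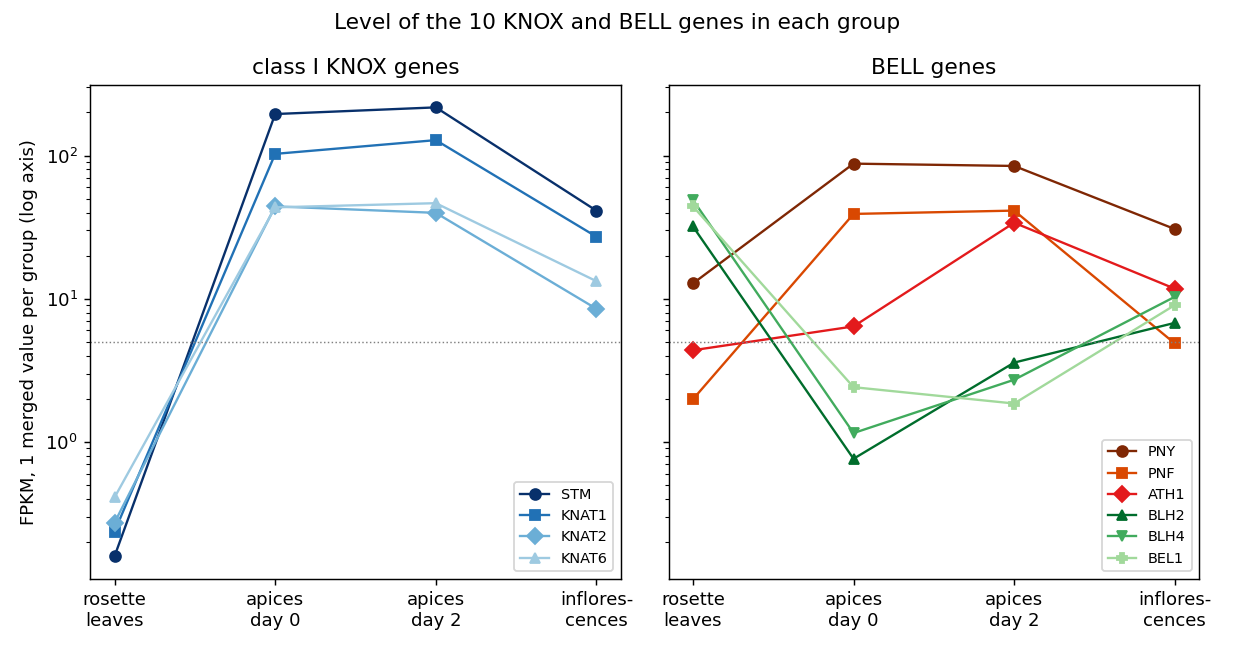
FPKM of the 4 class I KNOX genes (left) and the 6 BELL genes (right) in each of the 4 groups, on a log axis. Each point is the authors' merged value of a group, lines only join the points of a gene, and the dotted line marks 5 FPKM. All KNOX genes lie below 0.5 FPKM in leaves and at 39.8 FPKM or more in apices, while BLH2, BLH4 and BEL1 show the opposite order and ATH1 is high at day 2.

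Read against all 22289 genes, STM lay at the 96.9th percentile of level at day 0 and at the 8.21st in leaves, and KNAT1 at the 93.4th and the 9.31st. PNY lay at the 47.1st percentile in leaves, so this BELL partner was at a middling level in the tissue where the KNOX genes were lowest. In inflorescences the members spanned the 25.2nd percentile (PNF) to the 80.2nd (STM). STM was the most abundant of the 10 in every group but leaves, where it was the least abundant and BLH4 the most.

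Because FPKM is scaled to transcript length, levels of different genes could be summed. The 4 KNOX genes summed to 1.08 FPKM in leaves, 385 FPKM in day-0 and 432 FPKM in day-2 apices, and 90.0 FPKM in inflorescences. The 6 BELL genes summed to 144, 138, 168 and 73.4 FPKM. The BELL sums of leaves and day-0 apices thus stood near each other, with a ratio of 1.05, but different genes made them up. The order of these sums turned with the scaling, tried after the data were seen, since day-0 apices were 1.03-fold higher with median ratio, 1.22-fold higher with upper quartile and 1.36-fold higher with equal-sum rescaling. In leaves BLH2, BLH4 and BEL1 accounted for 125 FPKM of the BELL sum, and at day 0 for 4.32 FPKM. PNY, PNF and ATH1 accounted for 19.1 FPKM in leaves and 133 FPKM at day 0. The ratio of the KNOX to the BELL sum was 2.80 in day-0 apices, 2.57 in day-2 apices, 1.23 in inflorescences and 0.00746 in leaves.

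Within the KNOX sum, STM made up 50.6% in day-0 apices, 50.3% in day-2 apices and 45.8% in inflorescences. KNAT1 made up 26.7%, 29.7% and 30.1%. In leaves KNAT6 held the largest share, 38.0%, of a sum of about 1 FPKM. Within the BELL sum, PNY made up 63.8% at day 0, 50.4% at day 2 and 41.8% in inflorescences. ATH1 made up 4.65% of it at day 0 and 20.2% at day 2. The ratio of PNY to PNF was 2.25 at day 0 and 2.05 at day 2, and it was 6.45 in leaves and 6.30 in inflorescences.

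**Figure D2:**
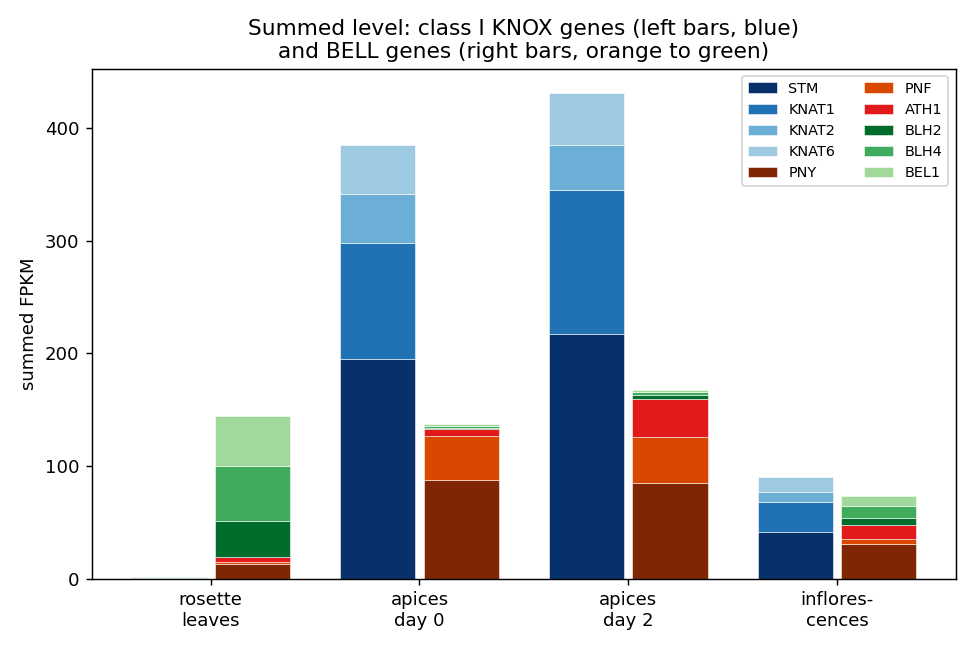
Summed FPKM per group of the 4 class I KNOX genes (left bar of each pair, blue) and the 6 BELL genes (right bar, orange to green), divided by gene. The KNOX bar is 1.08 FPKM in leaves and 432 FPKM at day 2, while the BELL bars of leaves and day-0 apices are nearly level at 144 and 138 FPKM and made of different genes.

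Apices of day 2 were set against those of day 0 to see how the transcripts stood once AP1-GR had been active for 2 days. ATH1 was the single member called higher, at 33.9 FPKM against 6.40 FPKM, which is 5.30-fold and a difference of 2.24 on the log2(FPKM + 1) scale, the 51st highest of all genes compared. None was called lower. Over all genes 0.817% were called higher and 1.64% lower. The KNOX genes and the STM partners PNY and PNF were not called. Ratios of day 2 to day 0 were 1.11 for STM, 1.25 for KNAT1, 0.901 for KNAT2 and 1.07 for KNAT6. Those of PNY and PNF were 0.963 and 1.05. Their differences all lay between the 5th and 95th percentiles of all genes, -0.63 and 0.42. KNAT1 had the highest of them, 0.32, which ranked 1678th. Whether any of them changed could not be tested without values per library.

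BLH2 had a day-2 value 4.70-fold its day-0 value and a difference of 1.38, which ranked 143rd, but at 3.58 FPKM it was under the 5 FPKM that a call needs. BLH4 had a ratio of 2.36 and BEL1 a ratio of 0.769, both at low levels. The median difference of the 10 genes was 0.12, and that of all genes was -0.0042. The flower primordium markers LFY and DRNL, 2 of 2, were also called higher at day 2, and of the 3 meristem markers CLV3, WUS and CLV1 none was called. In merged tissue, fewer cells of a type and less RNA per cell cannot be told apart, here or in the comparisons that follow. The part of a larger share of flower primordia in the ATH1 value was not tested.

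The reference annotation describes ATH1 as a gene that the floral regulator AGAMOUS activates in an ap1 cal background. AG (AT4G18960), named after its values were seen, stood at 0.849 FPKM in day-0 and 16.9 FPKM in day-2 apices, with 1.59 FPKM in leaves and 58.3 FPKM in inflorescences. ATH1 and AG were thus both higher at day 2 than at day 0, but ATH1 was lower in inflorescences than at day 2 and AG higher. A relation between them was not tested.

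Wild-type inflorescences were next compared with the apices. They differ from day-2 apices in genotype, treatment, stage and tissue together. Of the 10 genes 7 were called lower in inflorescences than at day 2 and 2 higher, where 4.22% of all genes were called lower and 13.9% higher. All 4 KNOX genes were called lower, by similar factors, with STM 5.27-fold lower, KNAT1 4.73-fold, KNAT2 4.68-fold and KNAT6 3.51-fold. Among the BELL genes PNF had the largest difference, -2.85 (8.48-fold lower), ahead of ATH1 at 2.89-fold and PNY at 2.76-fold lower. BLH4 was 3.80-fold and BEL1 4.87-fold higher, and BLH2, with a ratio of 1.89, was not called. The median difference was -1.60 for the 10 genes against 0.06 for all genes.

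Against day-0 apices, which share their genotype with day 2 but not the treatment, 6 members were called lower in inflorescences and 3 higher. Over all genes 3.97% were called lower and 12.5% higher. The KNOX genes were 3.28-fold (KNAT6) to 5.20-fold (KNAT2) lower, PNF was 8.04-fold lower and PNY 2.86-fold lower. BLH2, BLH4 and BEL1 were 8.90-fold, 8.96-fold and 3.75-fold higher. ATH1 was the exception on the BELL side, at 11.7 FPKM against 6.40 FPKM and not called. The comparisons with day 0 and day 2 share the inflorescence values. Beside these values, the anther markers (3 of 3) and the carpel and ovule markers (3 of 3) were called higher in inflorescences than in either set of apices. The leaf markers (3 of 3) were also called higher, with LHCA1 4.60-fold and LHCB2.2 8.92-fold higher than at day 2, and 2.97-fold and 5.32-fold higher than at day 0. In these comparisons they moved in the direction of BLH2, BLH4 and BEL1. Between day 2 and day 0 no leaf marker was called. LHCA1, LHCB2.2 and RBCS1A stood at 0.646, 0.597 and 0.814 of their day-0 values. BEL1 was also lower at day 2, whereas BLH2 and BLH4 were higher, all without a call. LFY and DRNL were called lower in inflorescences than in either set of apices, at a summed 3.51 FPKM. Of the meristem markers, CLV3, the stem cell signal, stood at 0.0768 FPKM in inflorescences against 8.80 FPKM at day 0. CLV1 stood at 13.3 against 26.8 FPKM and was not called, whereas WUS was called higher at 17.8 against 6.91 FPKM. Against day 2, CLV3 and CLV1 were called lower in inflorescences and WUS was not called. The part of tissue composition in the KNOX and BELL values was not tested.

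**Figure D3:**
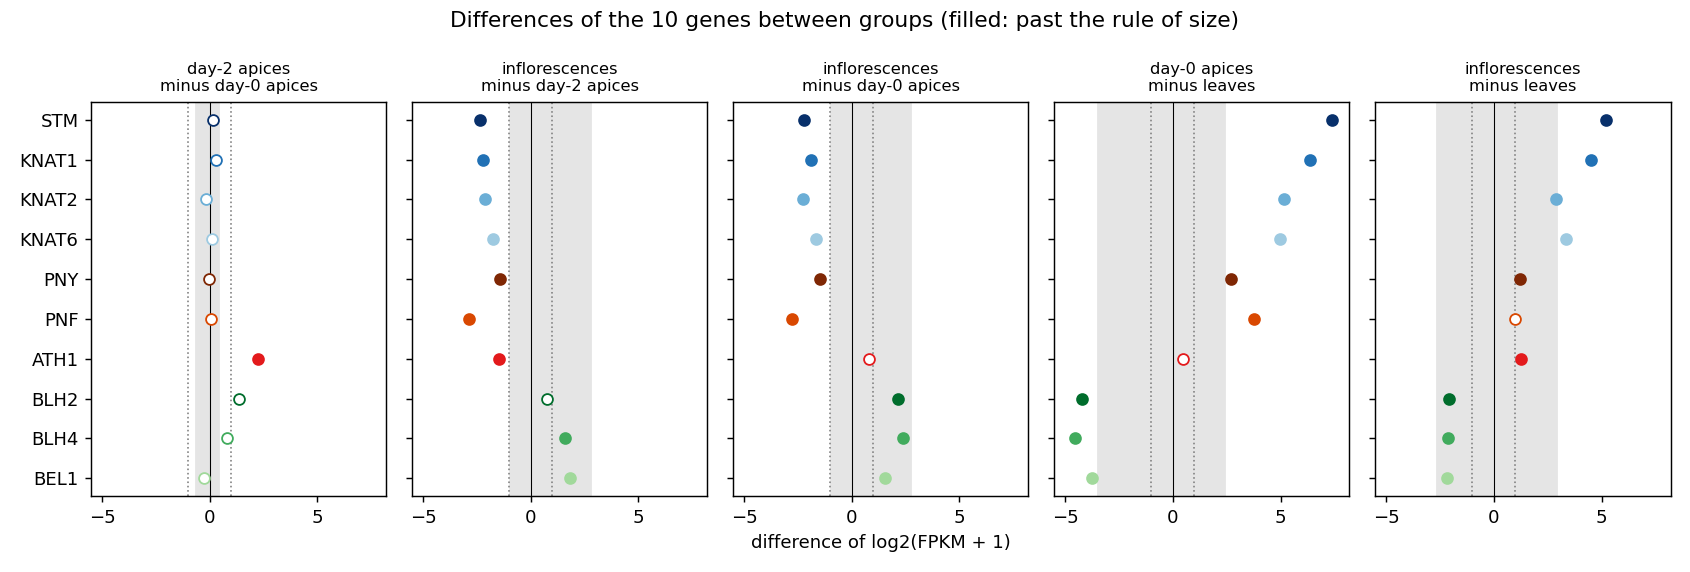
Difference of log2(FPKM + 1) for each of the 10 genes in 5 comparisons, with filled points for genes past the rule of size and open points for the others. The grey band spans the 5th to the 95th percentile of all genes compared and the dotted lines mark a difference of 1 either way. ATH1 is the only filled point between day 2 and day 0, and the 4 KNOX genes lie left of the band in both comparisons of inflorescences with apices and right of it in day-0 apices against leaves.

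Against rosette leaves, day-0 apices are another tissue of another genotype. Of the 10 genes 6 were called higher in apices and 3 lower, against 16.3% and 23.0% of all genes. STM had the 13th highest difference of all genes, 7.40, and a ratio of 1228, and KNAT1 had the 28th highest, 6.39, and a ratio of 435. KNAT2 and KNAT6 were 162-fold and 106-fold higher. These ratios rest on leaf values below 0.5 FPKM and are imprecise for that reason. PNF was 19.7-fold and PNY 6.88-fold higher in apices. BLH4 was 42.6-fold lower, BLH2 42.0-fold lower and BEL1 18.4-fold lower. ATH1, with a ratio of 1.47, was the member that was not called. The median difference was 5.77 for the KNOX genes and -1.63 for the BELL genes, against -0.07 for all genes.

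Wild-type inflorescences were last compared with wild-type leaves, so that tissues of a shared genotype were set side by side. Here 6 members were called higher in inflorescences and 3 lower, against 17.1% and 18.9% of all genes. STM was 259-fold higher, KNAT1 115-fold, KNAT6 32.4-fold, KNAT2 31.2-fold, ATH1 2.69-fold and PNY 2.40-fold. PNF was 2.46-fold higher but not called, since its difference was 0.98 and its higher value, 4.86 FPKM, was under the 5 FPKM that a call needs. BLH2, BLH4 and BEL1 were lower by nearly the same factor, 4.72-fold, 4.76-fold and 4.90-fold. The leaf column summed to more FPKM than the others, and rescaling all groups to equal sums, tried after the data were seen, shifted the median of all genes by 0.27 in day-0 apices against leaves and by 0.42 in inflorescences against leaves. With it, the share of higher genes among all calls went from 41.5% to 59.3% and from 47.5% to 65.8%, and with upper quartile rescaling it was 53.9% and 60.4%. PNF was then called higher in inflorescences under both, and no other member's call against leaves differed.

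The remaining 12 genes of the families, a list drawn up by family membership, differed among themselves. In day-0 apices against leaves 2 of them were called higher and 6 lower, where 16.3% and 23.0% of all genes were, and their median was -0.99. The 2 higher genes were BLH5 and KNATM, and the leaf value of KNATM was a listed 0. The lower count depended on the scaling of the leaf column, since it was 5 with median ratio and 3 with upper quartile or equal-sum rescaling. The class II KNOX genes, which in general act against class I genes and promote differentiation, were called lower in apices for 3 of the 4 genes as deposited, but only KNAT4 under upper quartile and equal-sum rescaling. KNAT4 stood at 153.6 FPKM in leaves against 15.7 FPKM at day 0, KNAT3 at 75.7 against 29.8 FPKM and KNAT5 at 56.7 against 25.5 FPKM. KNAT7, known for a role in secondary walls, was low in leaves and apices and stood at 7.83 FPKM in inflorescences.

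Of the other BELL genes, BLH1 at 155 against 12.2 FPKM, BLH3 at 66.2 against 8.50 FPKM and BLH10 at 22.3 against 10.0 FPKM were lower in day-0 apices than in leaves, although the call of BLH10 ended under all 3 rescalings, and BLH5 was higher at 5.77 against 0.918 FPKM. BLH7 stood at 16.7 to 28.0 FPKM in all groups without a call. Of the summed FPKM of all 22 family genes, the 10 genes made up 77.4% in day-0 and 80.1% in day-2 apices, against 20.6% in leaves and 46.5% in inflorescences.

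KNATM, a short KNOX gene whose protein lacks the homeodomain and can bind BELL proteins, was the only one of these 12 called between day 2 and day 0. It stood at 12.1 FPKM in day-0 and 2.05 FPKM in day-2 apices, with 9.24 FPKM in inflorescences and a listed 0 in leaves. ATH1 was thus higher and KNATM lower at day 2, where 0.817% of all genes were called higher and 1.64% lower. BLH11, at 4.55 FPKM in day-2 against 1.19 FPKM in day-0 apices, had a difference of 1.34 but was too low to be called, except with equal-sum rescaling.

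**Figure D4:**
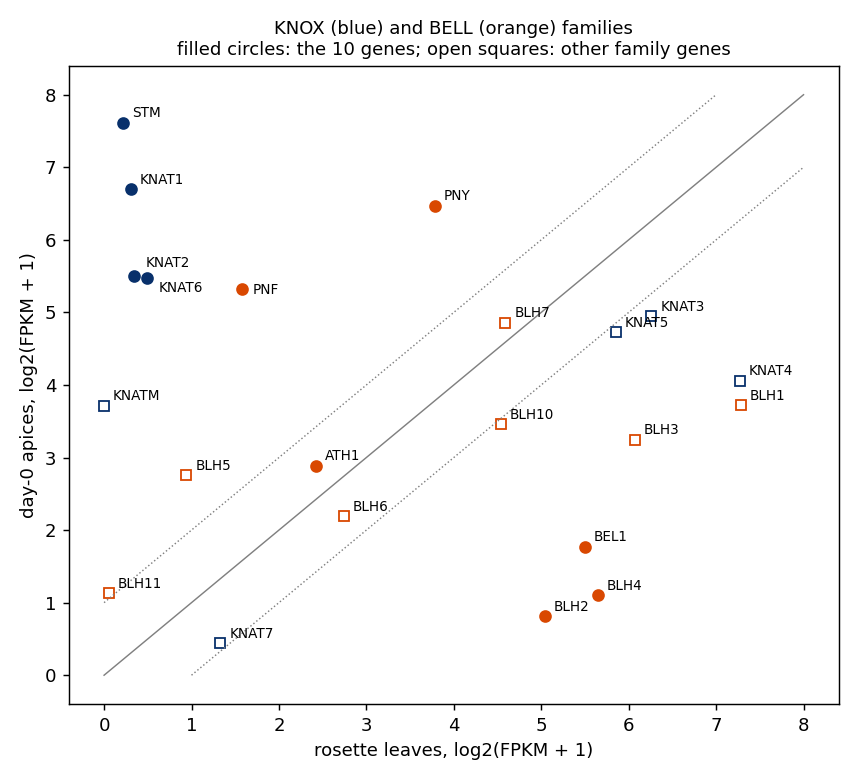
Level of all 22 KNOX (blue) and BELL (orange) genes in day-0 apices against rosette leaves, each as log2(FPKM + 1), with the 10 genes described here as filled circles and the other 12 as open squares. The solid line marks equal values and the dotted lines a difference of 1 either way. The class I KNOX genes stand in the upper left corner, and BLH2, BLH4 and BEL1 lie below the lower line.

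Genes that act upstream of KNOX genes or with them at organ boundaries were read from a list of 8. In day-0 apices against leaves 7 were called higher and none lower, against 16.3% and 23.0% of all genes. In inflorescences against day 0, 7 were called lower and 1 higher, against 3.97% and 12.5% of all genes. AS1 and AS2 encode partners that repress KNAT1, KNAT2 and KNAT6 in young organs. AS1 stood at 27.6 FPKM in leaves, 150 FPKM at day 0, 253 FPKM at day 2 and 64.2 FPKM in inflorescences, so its order across the groups was that of KNAT1. AS2 had another order, at 0.935, 2.94, 4.41 and 19.0 FPKM, highest in inflorescences.

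BOP2, which acts at the base of organs and, with BOP1, is known to activate ATH1 and KNAT6, stood at 2.54, 28.0, 26.8 and 5.79 FPKM, and BOP1 at 0.118, 6.93, 5.35 and 2.45 FPKM. Neither was called between day 2 and day 0, where ATH1 was, and a relation of the BOP genes to the ATH1 value was not tested. Of the CUC genes, which define organ boundaries and are linked to STM in both directions, CUC1 was called higher at day 2, at 62.6 against 19.7 FPKM, whereas CUC2 at 29.3 against 18.1 FPKM and CUC3 at 36.7 against 38.8 FPKM were not.

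Hormone genes that KNOX proteins are known to act on were read from a list of 5, of which 3 passed the filter on low values. GA20OX1, a gibberellin synthesis gene that class I KNOX proteins repress, stood at 0.823 FPKM in leaves, 8.06 FPKM at day 0, 1.96 FPKM at day 2 and 5.02 FPKM in inflorescences. It was called lower at day 2 than at day 0, while the KNOX genes were not called, and a relation between them was not tested. GA2OX2 and GA2OX4 encode enzymes that inactivate gibberellin and respond to KNOX proteins. GA2OX4 stood at 13.9 FPKM in day-0 apices, 10.5 FPKM in day-2 apices and 1.36 FPKM in inflorescences and was listed at 0 in leaves, and GA2OX2 stood at 40.2, 21.5 and 26.1 FPKM with 8.87 FPKM in leaves. The cytokinin synthesis genes IPT5 and IPT7 were below 1 FPKM in every group. Both were highest in leaves, IPT5 at 0.626 FPKM against 0.178 FPKM at day 0. IPT7, a known target of STM, stood at 0.806 FPKM in leaves and 0.0659 FPKM at day 0. OVATE family proteins bind KNOX and BELL proteins, and of the 5 in the list OFP1 had its highest values in apices, 11.0 and 14.9 FPKM against 1.39 FPKM in leaves, whereas OFP5 was highest in leaves at 16.8 FPKM.

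**Figure D5:**
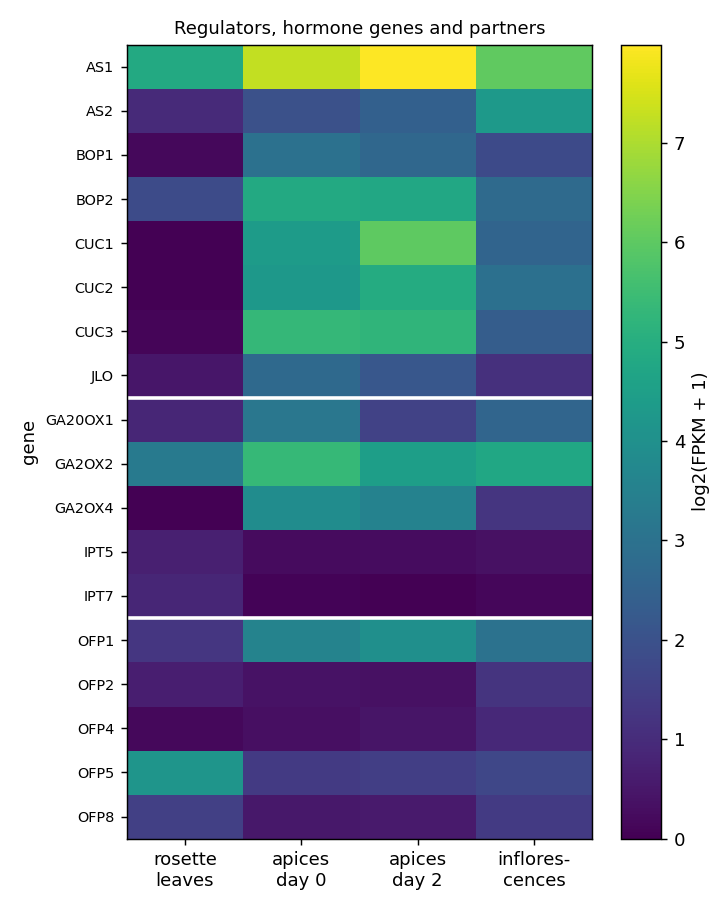
Level, as log2(FPKM + 1), of the 18 genes in the lists of KNOX regulators and boundary genes (top block), hormone genes (middle block) and OVATE family partners (bottom block) in the 4 groups. CUC1, CUC2 and CUC3 are below 0.1 FPKM in leaves, IPT5 and IPT7 are below 1 FPKM in every group, and AS2 is highest in inflorescences.

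Likeness of pattern was measured as the Euclidean distance between log2(FPKM + 1) values over the 4 groups, after each gene's own mean was subtracted, so that a distance of 0 means parallel profiles. With 4 points per gene it is a coarse description. Adding 1 to each FPKM holds low values together. For the KNOX genes, with leaf values close to 0, the distance thus also depends on their level in the other groups. Among the 45 pairs of members the nearest were KNAT2 and KNAT6 at 0.44, BLH2 and BLH4 at 0.71, and STM and KNAT1 at 0.77. PNY and PNF were 1.25 apart, farther than BLH4 and BEL1 at 0.80. KNAT2 was nearer to PNF, at 1.41, than to PNY, at 1.97.

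Outside the 10 genes, the gene with a symbol nearest to STM was AN3, a coactivator of leaf and organ growth, at 0.47, and the next was CYP78A5 at 0.72. The nearest to KNAT1 was GRF5 at 0.22 and to KNAT2 GRF6 at 0.15, both growth-regulating factor genes, and GRF3 was second for PNY at 0.13, after XRI1 at 0.13. KNAT6 was nearest to EGL3 at 0.33. PNF had NAC044 at 0.20, LOG4 at 0.37 and, next in order, GA2OX4 at 0.42. For ATH1 the nearest were ABCB15 at 0.51, LAC6 at 0.62 and NUB at 0.67, a regulator of lateral organ growth with 11.5 FPKM in day-2 against 0.963 FPKM in day-0 apices. GA2OX4 and NUB were listed at 0 in leaves, so their distances rest on a value that may be a failed estimate. BLH2 had RD20 at 0.19 and, 2 places further, the flowering signal gene FT at 0.36, and BLH4 had NAM at 0.32. BEL1 lay nearest to SHM1 at 0.10, a gene of photorespiration, and PSAE-1 at 0.12, a photosystem I gene, which stood at 1911 and 3009 FPKM in leaves.

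In the reference annotation (assembly TAIR10.1) the members lie on chromosomes 1 (3 genes), 2 (2 genes), 4 (3 genes) and 5 (2 genes). Their longest transcripts have 4 to 6 exons and 1401 to 2979 nucleotides, and 6 of the 10 have more than 1 annotated transcript. None overlaps another annotated gene. The deposited values do not separate transcripts of a gene, so the long and short forms of KNAT6 could not be told apart.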

How the data were processed

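The submitters' processing notes list Cufflinks 2.1.1, TopHat2 2.0.10, Bowtie2 2.1.0 and CASAVA 1.8.2, and name TAIR10 as the build. The deposited table holds 1 value per gene and group, read as FPKM because Cufflinks is listed and the values fit that unit. How libraries were merged or groups scaled, and with which annotation, is not given in the sources used here. Where an identifier had several rows (567 cases), these were added up. Symbols came from the RefSeq annotation of TAIR10.1, whose name differs from the authors' build, so no coordinates are given. A marker whose reference name differed (A9) was dropped.

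Differences of log2(FPKM + 1) were computed with pandas 2.3.3 and numpy 2.4.6 over 22289 genes in 5 comparisons. The rule of size replaced the replicate test that was planned for values per library. Its code was run on simulated tables without noise, where the outcome follows from the rule itself. The error rate of the rule was therefore not checked. The members, the 5 gene lists around them and the rule were chosen with earlier results of these data known. All 10 members are named. Listed genes past the rule, up to 4 others per list and the 3 genes nearest to each member could be named. Alternatives were other pseudocounts, filters, thresholds, scalings and treatment of repeated rows.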

Additional observations from a re-analysis of the deposited data

How the results depend on the processing

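No paired analysis was possible because the table holds a merged value per group, so replicate numbers could not be used and no library could be left out. Each count of members called and, where the setting bears on it, each KNOX sum was recomputed under pseudocounts of 0.1 and 5, no filter, upper quartile and median ratio rescaling, a 1.5-fold threshold, the highest of repeated rows and, added after the data were seen, rescaling to equal FPKM sums. Of 96 recomputed counts and sums, 95 stayed within 1.5 times the reported value. No filter and the highest of repeated rows could change no member value, since all 10 passed the filter and each had a single row. Agreement under those settings, here and for the single differences below, was therefore fixed in advance. With a pseudocount of 5, the members called higher in inflorescences than at day 2 went from 2 to 1, since BLH4 (0.99) fell short. That pseudocount also ended the calls of BEL1 in inflorescences against day 0 (0.92) and ATH1 in inflorescences against leaves (0.84), because it holds low values together. Of 400 recomputed differences of single members, 3 lost and 4 gained a call. None changed sign, although only the rescalings could have changed one. The gains were PNF under upper quartile (1.20) and equal-sum (1.29) rescaling, and BLH2 (0.76) and ATH1 (0.78) at 1.5-fold. Over all genes, day 2 against day 0 gave 182 higher and 366 lower, 465 and 880 at 1.5-fold, and 113 and 204 with a pseudocount of 5. For inflorescences against day 2, 940 lower became 2554 and 597, and for inflorescences against day 0, 884 lower became 2464 and 577. Equal sums gave 2770 lower in inflorescences against leaves in place of 4203. Rescalings of the other lists were added after the data were seen, and of the 12 other family genes 3 rather than 6 were then lower in day-0 apices than in leaves with upper quartile or equal sums. The depth is unknown, so values under 1 FPKM carry an error that cannot be stated.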
